A study of Mus musculus with 2 samples.

Results

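The genes described here are 10 genes of matrix mineralisation and phosphate handling, taken by name from the 20657 named genes with a probe on the array: Alpl, Phospho1, Smpd3, Enpp1, Ank, Slc20a1, Slc20a2, Dmp1, Ibsp and Spp1. Their probes are the non-control spots whose transcript accession is a RefSeq transcript of one of these genes. This gave 13 probes with 1 spot each, 1 probe for 7 of the genes and 2 probes for the other 3 genes, Slc20a1, Slc20a2 and Ibsp. All 10 genes were among the 13860 named genes well above background on both arrays, and none of the 13 spots was saturated or marked as an outlier.

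RNA was measured in ATDC5, a mouse chondrogenic cell line whose cultures can condense, form cartilage nodules and later mineralise. The A-CEBP sample came from a stable ATDC5 line with a doxycycline-inducible A-CEBP, a dominant-negative protein that binds to factors of the C/EBP family and blocks their contact with DNA. The GFP sample came from a stable ATDC5 line with doxycycline-inducible GFP. Both lines, grown in 60 mm dishes, were given 2 µg/mL doxycycline (DOX) for 2 days and then ITS (insulin, transferrin, selenite) for 3 weeks, so that the controls had also received doxycycline and ITS. Neither the labels nor the design text say whether a line was 1 clone or a pool, and expression of the A-CEBP transgene was not checked. Each group was 1 sample on 1 one-colour Agilent array. The spread between cultures is therefore unknown, and the groups were compared by size with no test.

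Mineral in cartilage starts inside matrix vesicles, small membrane sacs shed by hypertrophic chondrocytes. Enzymes of the vesicle free phosphate from organic esters and from pyrophosphate, which otherwise blocks the growth of mineral crystals, while cells supply pyrophosphate by making it outside the cell or by exporting it. Sodium-dependent carriers take phosphate up, and acidic secreted phosphoproteins bind calcium and mineral in the matrix.

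Scanner signal at the 75th percentile was 906 intensity units on the A-CEBP array and 872 on the GFP array. Well above background were 58.0% of the 59305 non-control spots on the A-CEBP array and 54.6% on the GFP array. Levels below are log2 of the processed signal minus that percentile of the same array, so 0 marks the 75th percentile, and differences are A-CEBP minus GFP on this log2 scale. For differences, each probe is compared with itself on the other array and not with another probe, since probes bind with different strength. Only the summed levels of the cell type markers add different probes, and there the brightest probes weigh most. The scanner software's error model gave an error of the difference from 0.20 to 0.27 over the 13 probes, and this ± follows each difference below. For bright probes the model's error is a near-constant share of the signal. For Smpd3 it was 1258 of 12581 units in the A-CEBP sample and 431 of 4314 in the GFP sample. The ± is therefore nearly the same for every bright probe. Replicate spots of a probe differed less (SD 0.06 to 0.18 by brightness), and different probes of a gene differed with an SD of 0.19 over 3601 genes. These errors cover the measurement only, and the number of arrays limits the precision. Over all 13860 genes the median difference was 0.05, with quartiles at -0.10 and 0.19.

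Seen together, the 10 genes had a median difference of 0.33, from -0.40 to 1.49. By the brighter probe 9 genes lay above 0, against 59.1% of all genes, but for Slc20a1 and Slc20a2 the sign turned with the processing or the probe. By a 2-fold size rule, Smpd3 and Dmp1, 2 of the 10 genes (20.0%), were higher with A-CEBP, against 1.26% of all genes, and 0 were lower, against 1.70% of all genes. At 1.5-fold, 4 of the 10 were higher (Alpl and Ank in addition), against a background of 4.70%, and 0 were lower, against 3.80%. The other 6 genes lay within 1.5-fold. The 10 genes were chosen with earlier results of these data known, so these shares are a description only. Of all genes past 2-fold, 42.4% were higher with A-CEBP, and 73.9% when the arrays were scaled on spike-in spots, which added 0.30 to every difference. In bulk RNA, more cells of a type and more RNA per cell cannot be told apart.

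**Figure D1:**
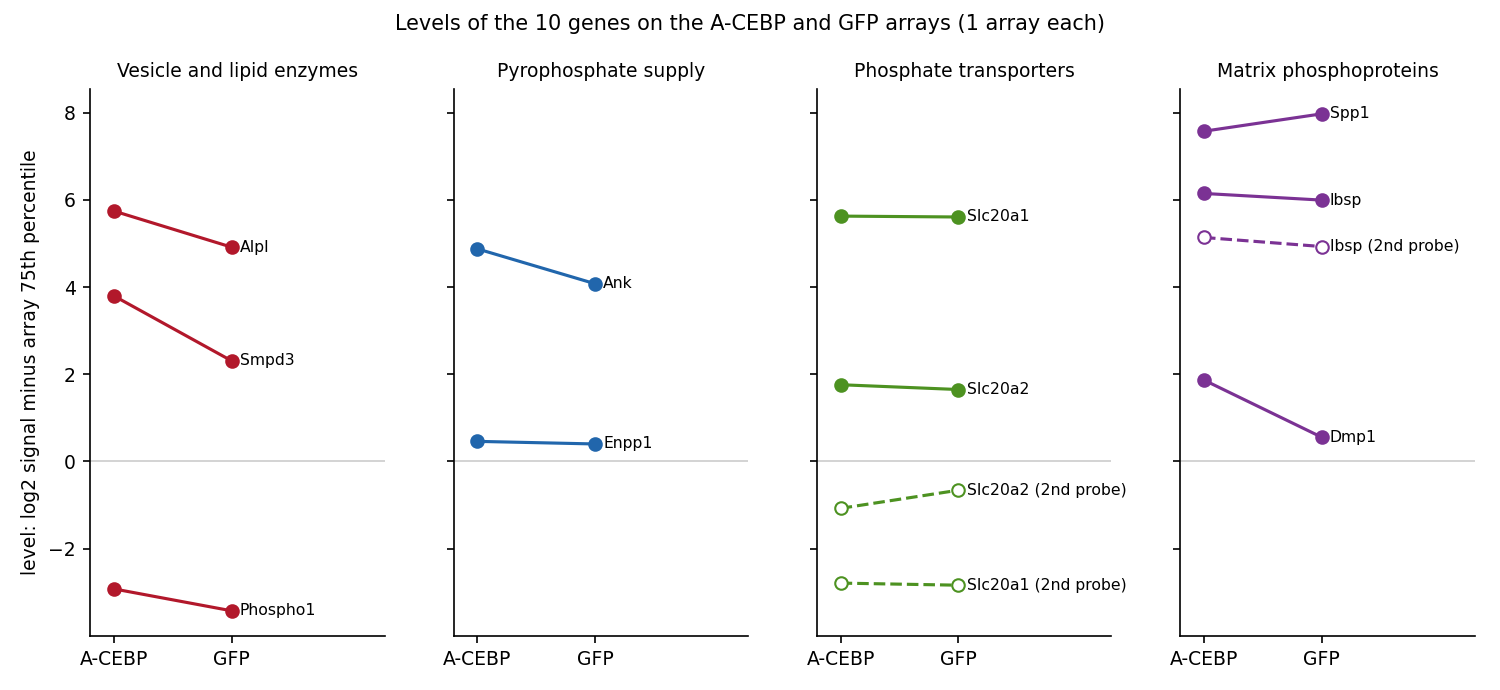
Level of each probe (log2 processed signal minus the array's 75th percentile) on the A-CEBP array (left point) and the GFP array (right point), by role; open points and dashed lines are the dimmer probe of a gene with 2. The lines of Smpd3 (3.80 and 2.31) and Dmp1 (1.87 and 0.56) differ most between the arrays, those of Slc20a1 (5.63 and 5.61) are flat, and Spp1 (7.58 and 7.97) is lower in A-CEBP.

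Because A-CEBP acts on C/EBP binding, and because Dmp1, Ibsp and Spp1 are near neighbours on chromosome 5 that did not differ alike, the letters upstream of their starts are shown first. Promoter windows were available for 8 of the 10 genes (12 windows), from RefSeq's GRCm38.p6, of which the 250 bases before each start were read. Smpd3, the gene that differed most, and Slc20a2 had no window, so the counts of matches do not cover them. They were searched on both strands for the C/EBP palindrome TTGCGCAA, its relaxed form TTGCNNAA (which includes the palindrome), the Runx core TGTGGT and the E-box CACGTG. Capitals below mark a match to any of these, and a Runx core on the opposite strand reads ACCACA. The labels upstream start and internal start give only the order of a gene's windows along its strand, and not which start is used more. Enpp1 is shown as one of the 2 genes with a relaxed C/EBP match. The other is Spp1, whose match lies in the window of its internal start, which is not shown.
Dmp1, upstream start (GRCm38.p6, chr5:104197325-104197574, plus strand): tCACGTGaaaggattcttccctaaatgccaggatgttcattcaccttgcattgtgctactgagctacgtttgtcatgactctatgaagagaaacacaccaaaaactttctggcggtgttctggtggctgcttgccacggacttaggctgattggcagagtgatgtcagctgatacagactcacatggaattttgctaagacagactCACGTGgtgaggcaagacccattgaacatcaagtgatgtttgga
Dmp1, internal start (GRCm38.p6, chr5:104202367-104202616, plus strand): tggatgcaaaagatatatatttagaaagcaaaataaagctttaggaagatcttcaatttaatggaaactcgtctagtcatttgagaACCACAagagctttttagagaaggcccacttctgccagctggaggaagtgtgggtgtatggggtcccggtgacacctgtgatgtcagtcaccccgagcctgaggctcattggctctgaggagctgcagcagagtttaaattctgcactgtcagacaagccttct
Ibsp (GRCm38.p6, chr5:104299037-104299286, plus strand): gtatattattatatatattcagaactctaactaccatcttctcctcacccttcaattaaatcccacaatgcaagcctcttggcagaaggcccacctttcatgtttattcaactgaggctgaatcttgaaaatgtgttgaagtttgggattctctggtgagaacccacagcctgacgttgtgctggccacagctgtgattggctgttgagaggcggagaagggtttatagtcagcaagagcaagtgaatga
Spp1, upstream start (GRCm38.p6, chr5:104434861-104435110, plus strand): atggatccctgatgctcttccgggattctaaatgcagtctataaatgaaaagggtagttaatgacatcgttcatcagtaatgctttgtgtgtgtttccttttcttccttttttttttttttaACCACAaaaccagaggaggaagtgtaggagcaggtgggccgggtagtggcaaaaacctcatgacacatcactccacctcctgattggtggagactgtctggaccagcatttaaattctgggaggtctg
Enpp1 (GRCm38.p6, chr10:24712160-24712409, minus strand): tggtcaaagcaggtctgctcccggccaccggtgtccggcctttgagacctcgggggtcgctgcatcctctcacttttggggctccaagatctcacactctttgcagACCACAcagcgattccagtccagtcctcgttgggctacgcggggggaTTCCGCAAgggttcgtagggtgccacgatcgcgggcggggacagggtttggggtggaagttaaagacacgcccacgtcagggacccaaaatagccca

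The C/EBP palindrome was in 0 of the 12 windows, and it was in 0.164% of all 32851 promoter windows of this length. The relaxed form was in 2 of the 12 windows, those of Enpp1 (TTCCGCAA on the opposite strand, 97 bases before the start) and the internal start of Spp1 (TTGCAGAA, 156 bases before), against 9.56% of all windows. By gene this was 2 of 8, against 10.8% of all genes. The Runx core was in 4 of the 12 windows, against 14.0% of all windows, and in 4 of the 8 genes (Enpp1, Slc20a1, Dmp1 and Spp1), against 15.9% of all genes. In Spp1 it lay 128 bases before the upstream start. The E-box was in 3 of the 12 windows, against 6.02% of all windows, and in 3 of the 8 genes (Phospho1, Slc20a1 and Dmp1), against 6.86% of all genes. The upstream window of Dmp1 held it 2 times, at 249 and 44 bases. Both windows of Alpl, and the single windows of Ank and Ibsp, held none of these letters. A match is a run of letters and not a bound site. A window with no match says nothing of sites elsewhere.

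Of the vesicle and lipid enzymes, Smpd3 differed most of all 10 genes. It encodes neutral sphingomyelinase 2, which splits sphingomyelin to ceramide and phosphocholine, and mice that lack it have poorly mineralised cartilage and bone. Its signal was 12581 intensity units in the A-CEBP sample, against 4314 in the GFP sample, 2.81-fold higher (log2 difference 1.49 ± 0.20). This difference was above that of 99.8% of the genes measured.

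Alpl encodes tissue-nonspecific alkaline phosphatase, the enzyme of matrix vesicles and cell membranes that hydrolyses pyrophosphate and phosphate esters. Its signal was 48529 units in the A-CEBP sample and 26306 in the GFP sample, 1.78-fold higher (0.83 ± 0.20). The difference lay under the 2-fold rule and passed it (1.13) when the arrays were scaled on spike-in spots.

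Phospho1 encodes the phosphatase that frees phosphate from phosphocholine and phosphoethanolamine inside the vesicle. It was dim on both arrays, at 119 units in the A-CEBP sample and 81.0 in the GFP sample, where the faintest spots well above background read 24.8 and 32.9. It was 1.42-fold higher in the A-CEBP sample (0.50 ± 0.27), and the difference was 0.19 after the normexp background correction. So the 3 enzymes lay above 0 together, with sizes that ran from 1.42-fold to 2.81-fold. The gap between Smpd3 and Phospho1 was 0.99, against a combined error of 0.34.

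The genes that supply pyrophosphate differed from each other. Ank encodes the membrane protein through which cells release pyrophosphate and nucleotides, and its loss causes progressive ankylosis with mineral in the joints of mice. Its signal was 26605 units in the A-CEBP sample, against 14713 in the GFP sample, 1.74-fold higher (0.80 ± 0.20), and it passed the 2-fold rule (1.10) with spike-in scaling. Enpp1, which makes pyrophosphate from extracellular ATP and opposes Alpl, read 1245 units in the A-CEBP sample and 1151 in the GFP sample (0.06 ± 0.20). That lay within its error, and 52.8% of all genes had a lower difference. Thus Alpl and Ank, of opposed effect on pyrophosphate, were higher by nearly the same size (a gap of 0.03 ± 0.29), while Alpl exceeded Enpp1 by 0.77 ± 0.29.

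**Figure D2:**
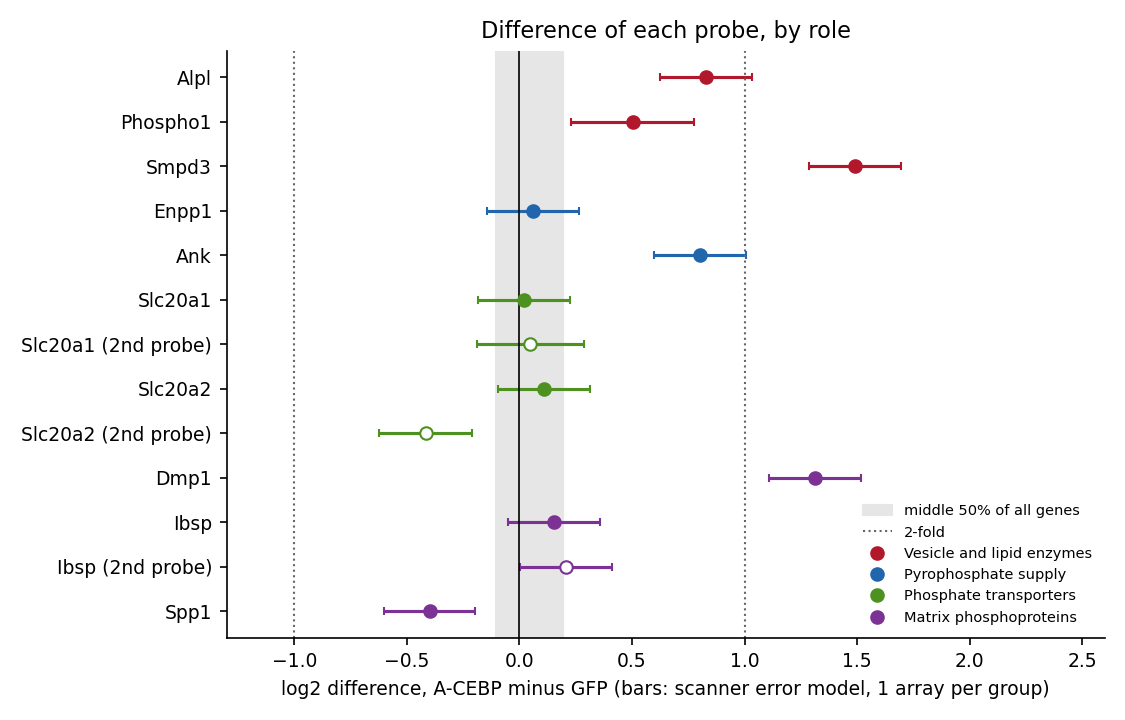
Log2 difference (A-CEBP minus GFP) of each of the 13 probes, coloured by role; bars are the scanner error model (±0.20 to 0.27), the grey band holds the middle 50% of all genes (-0.10 to 0.19) and dotted lines mark 2-fold. Smpd3 (1.49) and Dmp1 (1.31) lie past 2-fold, Alpl (0.83) and Ank (0.80) between, and the 2 probes of Slc20a2 (0.11 and -0.42) on either side of 0.

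Slc20a1 and Slc20a2 encode PiT-1 and PiT-2, sodium-phosphate cotransporters of the plasma membrane. The bright probe of Slc20a1 read 44778 units in the A-CEBP sample and 42529 in the GFP sample (0.02 ± 0.20), and its dim probe, for another transcript, read 131 and 122 (0.05 ± 0.24). Both were within their errors, and the sign of the bright probe's difference depended on the scaling, with a range from -0.08 to 0.32. For Slc20a2 the probes did not agree in direction, although both are assigned to the same transcript. The brighter one read 3065 units in the A-CEBP sample and 2735 in the GFP sample (0.11 ± 0.20). The dimmer one read 429 in the A-CEBP sample and 552 in the GFP sample, 1.33-fold lower (-0.42 ± 0.21). Their gap was 0.53, and the mean of the 2 was -0.15, so no direction is given for this gene. The SD of 0.19 between probes of a gene is that of a single probe, and a gap between 2 probes spreads more.

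The matrix phosphoproteins spread widest. Dmp1, Ibsp and Spp1 encode dentin matrix protein 1, bone sialoprotein and osteopontin, acidic secreted proteins of one family that bind integrins and mineral. Dmp1, best known from osteocytes and dentin, read 3301 units in the A-CEBP sample and 1281 in the GFP sample, 2.48-fold higher (1.31 ± 0.20), a difference above that of 99.6% of genes. Ibsp, whose protein nucleates hydroxyapatite crystals, read 64202 units in the A-CEBP sample and 55634 in the GFP sample (0.15 ± 0.20), and its other probe read 31880 and 26588 (0.21 ± 0.20). Its probes therefore agreed at about the size of the error.

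Spp1, which encodes osteopontin, an inhibitor of mineral growth and an attachment protein, lay below 0. It read 172702 units in the A-CEBP sample and 219318 in the GFP sample, 1.32-fold lower (-0.40 ± 0.20), and 6.62% of all genes had a lower difference. With spike-in scaling the difference was -0.10. Dmp1 exceeded Spp1 by 1.71 ± 0.29 and Ibsp by 1.16 ± 0.29, errors of the measurement only.

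These genes stand in one run on mouse chromosome 5, in the order Sparcl1, Dspp, Dmp1, Ibsp, Mepe, Spp1, Pkd2. Sparcl1, which encodes a relative of osteonectin, differed by 0.97, with levels of 0.88 in the A-CEBP sample and -0.09 in the GFP sample. Dspp, for the dentin phosphoproteins, was not well above background on either array. Mepe, for another phosphoprotein of bone matrix, was dim, at -3.40 in the A-CEBP sample and -3.76 in the GFP sample (0.36), and the ciliary channel gene Pkd2 differed by 0.03. The run therefore held differences of both signs, with no common size. Over the 10 genes, the 2 nearest protein-coding genes on each side gave 29 other genes measured on both arrays. Their median difference was 0.00, from -0.54 to 0.97, and 0 of the 29 passed 2-fold. Over all genes 1.26% were 2-fold higher and 1.70% lower, so a count of 0 in 29 is near the background.

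**Figure D3:**
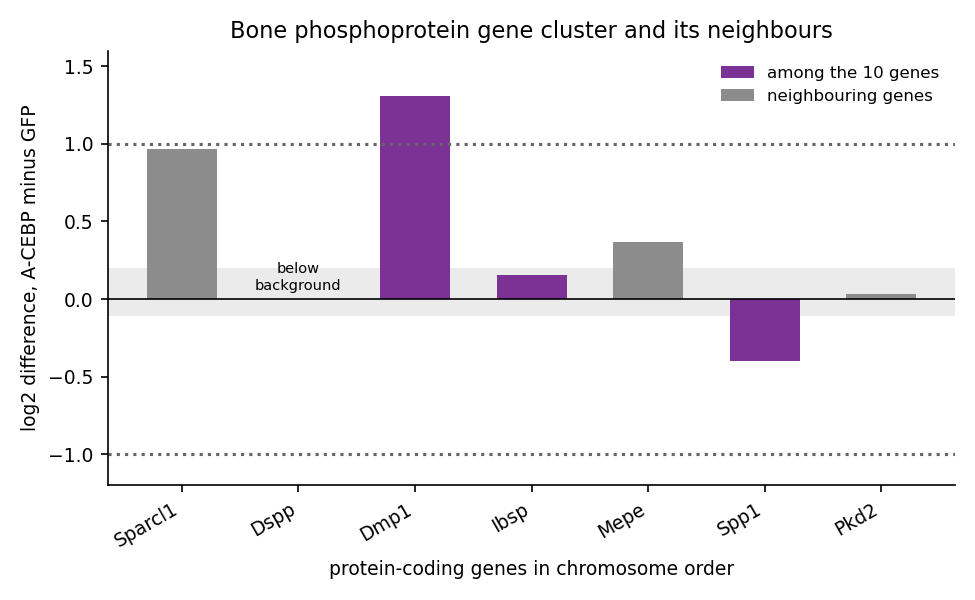
Log2 difference (A-CEBP minus GFP) of the protein-coding genes from Sparcl1 to Pkd2 in chromosome order; purple bars are genes among the 10, grey bars their neighbours, the grey band the middle 50% of all genes and dotted lines 2-fold. Sparcl1 (0.97) and Dmp1 (1.31) are the tall bars, Spp1 (-0.40) points down, and Dspp has no bar because it was not well above background.

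Other genes of mineral metabolism were read from 4 lists. Among all genes, 1.26% were at least 2-fold higher and 1.70% lower, so lists of this size would hold few, if any, at those shares. Of 17 genes of pyrophosphate handling and matrix vesicles, 13 were measured on both arrays. None of these passed 2-fold in either direction, and their median was 0.07, against 0.05 over all genes. The largest differences were those of Enpp2 (autotaxin, which makes lysophosphatidic acid; -0.94), Enpp3, an ectonucleotidase and the neighbour of Enpp1 (-0.54), the nucleoside carrier gene Slc29a1 (0.47) and Enpp6, a choline phosphodiesterase (-0.41). Thus the 3 measured relatives of Enpp1 lay below 0, where Enpp1 was at 0.06. Enpp6 was dim, at -4.39 in the A-CEBP sample and -3.98 in the GFP sample.

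Of 17 genes of phosphate transport and its control, 12 were measured on both arrays, with a median of 0.27, and by the 2-fold rule 0 were higher and 1 was lower. The one that passed was Fam20c, which encodes the Golgi kinase that phosphorylates Dmp1, Ibsp, Spp1 and other secreted phosphoproteins. Its level was 4.08 in the A-CEBP sample and 5.30 in the GFP sample, 2.32-fold lower (-1.21, and -1.47 for its other probe). With spike-in scaling its difference was -0.91, under the rule. Pth1r, the receptor for parathyroid hormone and PTHrP, differed by 0.67, and Fgfr1, a receptor for FGF23 with Klotho, by 0.59 (its probes ranged from 0.36). The renal phosphate carrier gene Slc34a1 was dim on both arrays and differed by 0.55. Kl, which encodes Klotho, was not well above background on either array.

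In the list of mineral-binding and inhibitor proteins, 14 of 16 genes were measured on both arrays. None passed 2-fold, 12 lay above 0 and 2 below (against 59.1% of all genes above 0), and the median was 0.28. Ucma, a Gla-rich cartilage protein, differed by 0.72, the bone proteoglycan gene Omd by 0.71, Bglap2, for osteocalcin, by 0.43, and Ahsg, for fetuin-A, by -0.60. Ahsg was dim, at -4.14 in the A-CEBP sample and -3.55 in the GFP sample. The matrix Gla protein gene Mgp, a calcification inhibitor, differed by 0.15. It was named, like Kl, after its value was seen.

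The last list held integrins, sphingomyelin enzymes and relatives of Alpl and Phospho1. Of its 15 genes 13 were measured on both arrays, with a median of 0.07, and 1 was higher and 0 lower by the 2-fold rule. Alppl2, a relative of Alpl, passed the rule narrowly (1.02) and was dim, at -2.34 in the A-CEBP sample and -3.36 in the GFP sample. It was under the rule with normexp background (0.52) and, by a small margin, with cyclic loess and with the authors' deposited table. How far its probe shares signal with Alpl was not tested. The integrin gene Itgb5 differed by 0.30, and Smpd1, for acid sphingomyelinase, by 0.29, where Smpd3 was at 1.49. For the integrin gene Itgb3 the brighter probe gave -0.26 and the other 0.07, so its direction is not given.

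**Figure D4:**
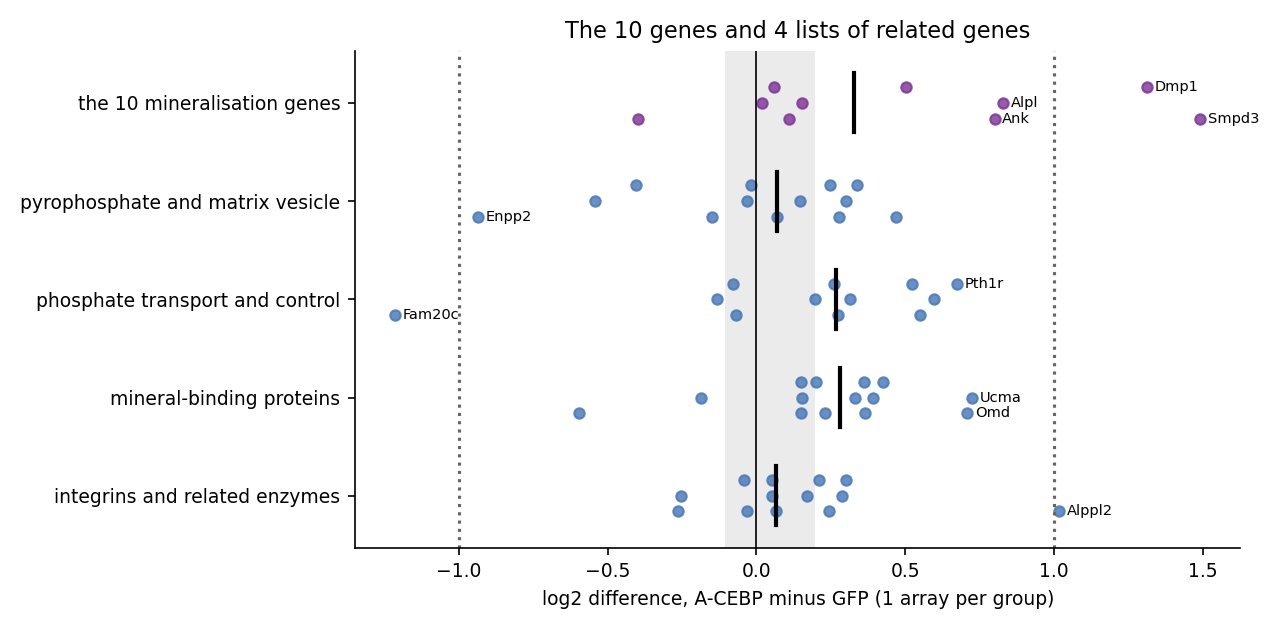
Log2 difference (A-CEBP minus GFP) of the 10 genes (purple) and of the measured members of 4 related lists (blue); each point is a gene, black bars are medians, the grey band is the middle 50% of all genes and dotted lines mark 2-fold. The medians are 0.33 for the 10 genes and 0.07, 0.27, 0.28 and 0.07 for the lists from top to bottom, and Fam20c (-1.21) is the point furthest to the left.

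Markers of cell types were read beside these genes. Of 14 chondrocyte markers 12 were measured on both arrays, Col9a3 on the A-CEBP array only and Matn3 on neither. Their median difference was 0.62, with 3 at least 2-fold higher (Hapln1, Acan and Cnmd), against 1.26% of all genes. The log2 of their summed levels was 8.95 in the A-CEBP sample and 8.55 in the GFP sample, mostly from Col2a1 (8.65 and 8.22). Of 7 hypertrophic markers all were measured, with a median of 0.56, and sums of 6.90 and 6.35. Ihh was 2.94-fold higher and Mmp13 2.11-fold lower. All 6 osteoblast markers with a probe were measured and none was 2-fold apart (median 0.34, sums of 9.85 and 9.54). The part of these shifts in the differences of the 10 genes was not tested.

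Markers of other cells were fewer. Of 7 osteoclast markers 4 were measured (median -0.45, sums of -0.93 in the A-CEBP sample and -0.33 in the GFP sample). Their levels were low, from -3.39 to -2.59 in the A-CEBP sample and from -3.70 to -1.63 in the GFP sample. The probes of Acp5 lay on either side of 0, from -0.45 to 0.42. Mmp9, Calcr and Dcstamp were not well above background, and Ctsk was 2.03-fold lower. Of 7 leukocyte markers with a probe 4 were measured (median -0.48), and Ptprc, Adgre1 and Tyrobp were not well above background. By the brightest probe 3 of the 4 lay below 0, where 59.1% of all genes lay above 0. One of these 3, Csf1r, was at -0.14, with probes from -0.14 to 0.36. The leukocyte sums (4.78 and 4.61) were carried by Itgam, whose probes ranged from -0.57 to 0.23. Of 4 osteocyte markers 3 were measured (4.49 and 4.25, carried by Fgf23 at 4.39 and 4.12), and Sost, which marks mature osteocytes, was not. Of 7 adipocyte markers 3 were measured (2.90 and 3.13), with Fabp4 3.77-fold lower, while Cidec and Lep were not well above background on either array. Plin1 and Adipoq had that mark on the A-CEBP array only, but Adipoq was at -4.74 in the A-CEBP sample and -4.72 in the GFP sample, and Plin1 at -4.31 and -4.87. Of 5 endothelial markers 3 were measured (3.22 and 3.25), without Cdh5 and Tek. Of 5 muscle markers 2 were measured (-0.34 and -0.99), without Myog, Myod1 and Ckm.

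As for technical values, spots within 2 rows and columns of the 13 probes, 7 to 16 of them well above background around each, had median differences from -0.10 to 0.14. The local background of the 13 spots was lower on the A-CEBP array for every one, such as 41 against 47 raw units for Smpd3, whose raw spot values were 13499 and 4460. The share over all spots is not given here, so this cannot be told apart from a lower background of the whole array. For Smpd3 and Dmp1 the 2-fold rule was passed under each of the 10 alternative processings, with ranges from 1.44 to 1.79 and from 1.24 to 1.61. Not all of these could alter the values. Each gene has 1 unmarked, detected probe, so keeping outliers, averaging probes or dropping the detection filter left its difference as it was. The changes of scaling and the authors' deposited table shift all genes by the same amount.

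**Figure D5:**
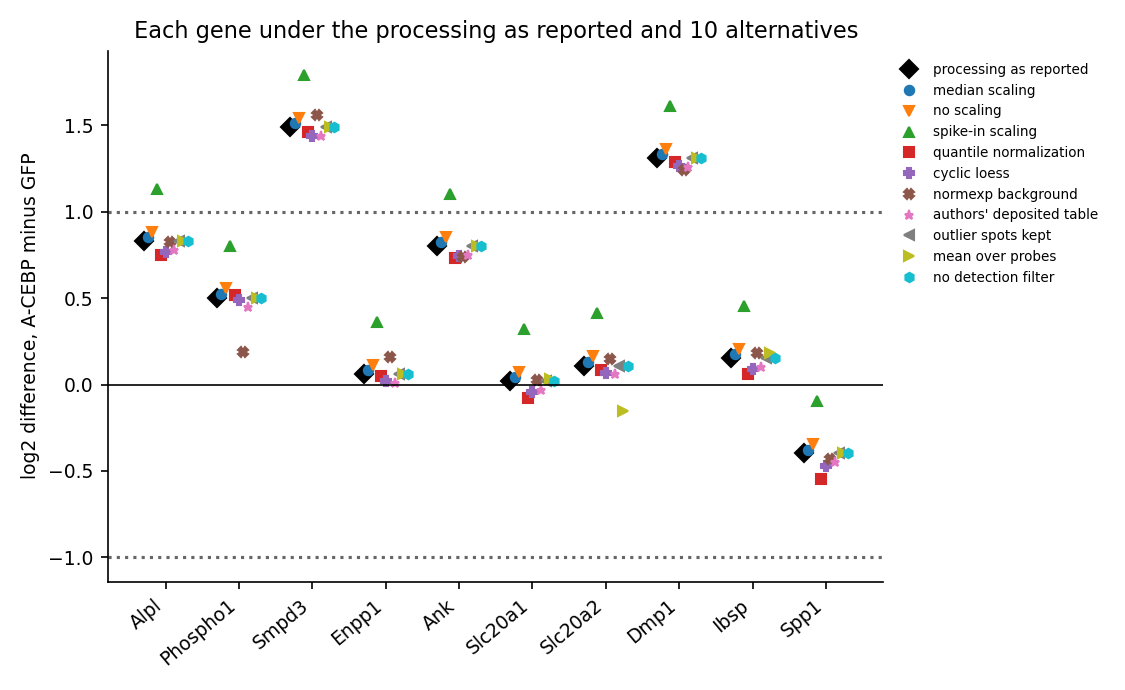
Log2 difference (A-CEBP minus GFP) of each of the 10 genes under the processing as reported (black diamonds) and 10 alternatives (coloured symbols); dotted lines mark 2-fold. Spike-in scaling (green triangles) lies above the other points in each gene and carries Alpl (1.13) and Ank (1.10) past 2-fold, while Phospho1 drops to 0.19 with normexp background.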

How the data were processed

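RNA of 1 A-CEBP and 1 GFP sample was hybridised to one-colour Agilent arrays on 1 slide, per the file headers. The deposited scanner files hold spot intensity, which Agilent Feature Extraction 10.10.1.1 (the submitters' processing notes) had corrected for background and spatial trend on each array by itself, as the file headers record. A further table deposited by the authors holds the same intensity multiplied by a constant per array (1.15 for A-CEBP and 1.24 for GFP, with column medians of 67.4 and 70.9). Its scale is linear, with no centring, and the origin of the constants is not given. Marks of 0 or 1 for detection and outliers, also deposited, are the scanner software's and have no unit.

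Log2 of the processed signal minus each array's 75th percentile over non-control spots was taken, after which 293 outlier spots were left out and replicate spots averaged. A gene was represented by its brightest probe well above background on both arrays. Probes were named through RefSeq transcripts (GRCm38.p6): 27229 of 55671 probes matched 1 gene, and the others are unnamed here. With 1 array per group, no p-value was computed: genes are described by size, with a 2-fold rule. The procedure was run on simulated data made from the GFP array with the noise of replicate spots only. These hold no spread between cultures, so they say nothing of differences between the 2 lines. The members, lists and rules were chosen with earlier results of these data known, and the rule for named genes took every member, up to 4 of each list by size, and cell type markers not well above background or at least 2-fold apart. The files used here have no mean spot signal, so normexp (limma 3.58.1, offset 50) used the median signal. Alternatives changed scaling, background, normalisation, probe choice, filters and the size rule.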

Additional observations from a re-analysis of the deposited data

How the results depend on the processing

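No paired analysis was possible because each group held 1 array and the labels give no replicate numbers. Spike-in scaling, over 350 control spots, added 0.30 to each difference and moved the median of all genes to 0.35. It gave 1.13 for Alpl, 0.80 for Phospho1, 0.36 for Enpp1, 1.10 for Ank, 0.32 for Slc20a1, 0.41 for Slc20a2, 1.79 for Smpd3, 1.61 for Dmp1, 0.45 for Ibsp and -0.10 for Spp1. Their median became 0.63 with 4 genes at least 2-fold higher, and 444 of all genes were higher and 157 lower (73.9% of those apart, against 42.4% as reported). The lists' medians became 0.37 (pyrophosphate and vesicle), 0.57 (phosphate), 0.58 (mineral-binding, 2 genes higher) and 0.37 (integrins and enzymes), and 0 phosphate genes were lower. With normexp background Phospho1 was at 0.19, the median of the 10 genes at 0.18, and 97 of all genes were higher and 174 lower (174 and 236 as reported). The mean over probes put Slc20a2 at -0.15. Without the detection filter 603 genes were higher and 883 lower, and the phosphate list's median was -0.068. A 1.5-fold rule gave 4 of the 10 genes higher, 652 and 527 of all genes, and in the lists 1 vesicle gene lower, 2 phosphate genes higher, and 2 mineral-binding genes higher and 1 lower. Cyclic loess, normexp and the authors' deposited table left 0 genes higher in the integrin and enzyme list. The sign of Slc20a1 was below 0 in 3 of 10 alternatives, and that of Spp1 was below 0 in all 10. Of 302 values recomputed, 261 stayed within 0.19 (differences) or 1.5 times (counts) and on their side of 2-fold. Part of these could not change, since choices of outliers, probes and detection leave a gene with 1 unmarked, detected probe as it was. The causes were not tested. Phospho1, the dim probe of Slc20a1 and Alppl2 are limited by low signal over background.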

Other observations

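Further genes of the same lists were named after their values were seen, and those measured on both arrays lay within 1.5-fold. The annexin genes Anxa2, Anxa5 and Anxa6, whose proteins bind calcium and phospholipid in matrix vesicles, differed by 0.28, 0.25 and 0.30. Nt5e, for the ectonucleotidase that makes adenosine from AMP, differed by 0.07, and Ppa1, for a cytosolic pyrophosphatase, by -0.15. The phosphate exporter gene Xpr1 differed by 0.28 (0.04 by its other probe). The phosphate-lowering hormone gene Fgf23 differed by 0.26 and Phex, a peptidase gene lost in X-linked hypophosphataemia, by -0.07. Of the 2 probes of Fgf23 only 1 was well above background on both arrays. Entpd2, for an enzyme that hydrolyses extracellular ATP, was well above background on the A-CEBP array only, at least 1.55-fold higher there, a bound set by the lowest detected signal on the GFP array or the probe's own.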
